A study of Rattus norvegicus with 30 samples.

Results

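Promoter capture was examined at 10 genes of the rat mitochondrial genome, namely mt-Nd1, mt-Nd2, mt-Nd3, mt-Nd4, mt-Cyb, mt-Co1, mt-Co2, mt-Co3, mt-Atp6 and mt-Atp8. They were taken from a list of Ensembl identifiers and were 10 of the 20196 distinct identifiers in the promoter tables, which held 22307 rows each. All 10 were present, with 1 row apiece in every tissue. The list was chosen by gene identity, but with the promoter counts of these libraries known, including the high cortex counts of rats 1 and 10. The levels below are therefore a description, and the tissue comparisons are also given without those 2 libraries.

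The study asked whether traumatic brain injury (TBI) leaves lasting changes in DNA methylation. Adult male Sprague-Dawley rats received lateral fluid-percussion injury, in which a fluid pulse strikes the exposed dura, or the same anaesthesia and craniectomy without the pulse (sham). At 3 months the hippocampus and thalamus on the injured side and the cortex beside the lesion were taken from 5 sham rats (rats 1 to 5) and 5 TBI rats (rats 6 to 10), which gave 30 libraries in 6 groups. Sonicated DNA was captured with a methyl-CpG binding domain protein (MBD) and sequenced, and the reads were counted per promoter, exon and gene body. The extraction protocol describes the hippocampal piece as dentate gyrus with part of CA3. Each tissue piece held every cell type present there, and sham rats carried the craniectomy too.

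Mitochondrial DNA is a small circle present in many copies per cell, and cells with a high demand for energy usually hold more of it. Its protein genes encode core subunits of the respiratory chain, whose other subunits come from nuclear genes. The MBD protein binds methylated CpG sites, but the count of a window also depends on how many copies of the DNA were present, on its CpG content and on how much unmethylated DNA was carried along. Whether mitochondrial DNA carries CpG methylation at all is debated, and these factors cannot be told apart in the counts. Nor can more copies per cell be told apart from more cells that are rich in mitochondria.

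The study defined a promoter as 5000 bp upstream to 200 bp downstream of a transcription start site. On a molecule as small as the mitochondrial genome, windows of this length share bases, so a single read could be counted in several of the 10 windows. The members are therefore not independent measurements, and their summed share is a share of promoter counts rather than of reads. Levels are given as CPM, the count of a window scaled to 1000000 promoter counts of its library. Sequences and positions of these genes were not used here.

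Total promoter counts ranged from 1430875 to 4227800 per library. Some libraries stood apart outside the mitochondrial windows as well. Across 18396 promoter windows outside the members, the profile of cortex rat 4 correlated more closely with the hippocampus libraries (r = 0.966) than with the other cortex libraries (r = 0.905), as did that of cortex rat 6 (0.959 against 0.878). The library labelled hippocampus rat 5 was closer to the cortex (0.948) than to the hippocampus (0.846). Cortex rat 10 had the lowest correlation with its own tissue of all 30 libraries (0.696). Tissue markers could not be looked up, because the tables hold identifiers without symbols. The labels of cortex rats 4 and 6 and hippocampus rat 5 may be exchanged or their DNA mixed, which was not tested, so the tissue to which their shares belong is uncertain. The edgeR comparisons between groups that include these 3 libraries, or cortex rats 1 and 10, are also given with them left out.

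The 10 mitochondrial windows together took a far larger share of the promoter counts in the cortex than in the other tissues, and 2 cortex libraries stood far above the rest. In sham cortex the share was 15.5% in rat 1, 1.40% in rat 2, 1.71% in rat 3, 0.776% in rat 4 and 1.85% in rat 5. In TBI cortex it was 1.06% in rat 6, 1.24% in rat 7, 2.03% in rat 8, 3.37% in rat 9 and 34.6% in rat 10. The high libraries, rats 1 and 10, were 1 in each group. The sham and TBI values of the other 8 cortex libraries overlapped, with a mean of 1.68% ± 0.802 (SD, n = 8).

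In sham hippocampus the share was 0.333% in rat 1, 0.327% in rat 2, 0.213% in rat 3, 0.383% in rat 4 and 0.878% in rat 5. In TBI hippocampus it was 0.146% in rat 6, 0.293% in rat 7, 0.394% in rat 8, 0.358% in rat 9 and 0.156% in rat 10. Sham and TBI overlapped, and the highest value was that of rat 5, the library whose profile outside the members was closer to the cortex.

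Shares in the thalamus were of a size like those in the hippocampus. In sham thalamus the share was 0.494% in rat 1, 0.461% in rat 2, 0.283% in rat 3, 0.657% in rat 4 and 0.230% in rat 5. In TBI thalamus it was 0.132% in rat 6, 0.940% in rat 7, 0.327% in rat 8, 0.296% in rat 9 and 0.265% in rat 10. The TBI values enclosed all sham values, and rat 7 was the highest and rat 6 the lowest of the tissue.

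**Figure D1:**
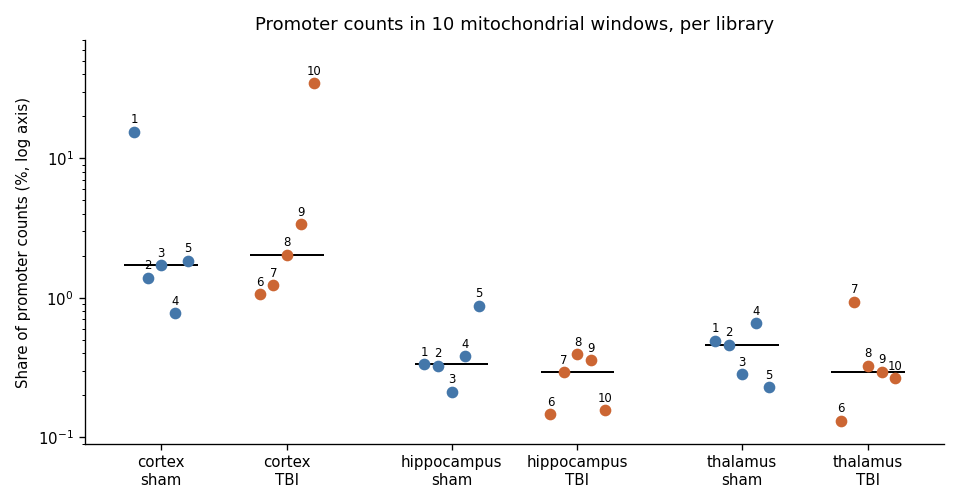
Share of all promoter counts (percent, log axis) that fell in the 10 mitochondrial windows, for each of the 30 libraries by tissue and operation; points are libraries labelled with the rat number and bars are group medians. Cortex rats 1 (15.5%) and 10 (34.6%) stand above the other cortex libraries, which lie between 0.776% and 3.37%.

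The 95% Wilson intervals of these single-library shares were at most 0.0933 percentage points wide. They cover counting error only and treat each count as a separate read. A read counted in several windows would make them too narrow even for that. The gaps of cortex rats 1 and 10 to the other libraries were far wider than these intervals. The high shares of rats 1 and 10 were seen in the cortex only. Rat 10 was 9th in the hippocampus and 8th in the thalamus of 10 rats, and rat 1 was 5th and 3rd. Cortex rat 10 also had the most promoter counts of its tissue, 3992056. With the members taken out it still had 2612315, against 1828294 to 2490075 in the other cortex libraries. These remainders still held windows outside the list that followed the members, described below. ENSRNOG00000031053, ENSRNOG00000029971 and ENSRNOG00000029042 reached 37590, 36427 and 17860 CPM in the cortex, and their counts were not removed here.

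Set against the median promoter window of the same library, the median mitochondrial window was 35.5 to 1814 times higher in the cortex, 7.94 to 29.7 times in the hippocampus and 7.45 to 31.7 times in the thalamus. In the cortex all 10 windows were in the top 1% of rows in 10 of 10 libraries, and their ranks ran from 1 to 68. The same held in 3 of 10 hippocampus libraries and 8 of 10 thalamus libraries, where the lowest ranks were 1379 and 762. Without rats 1 and 10 the cortex values ran from 35.5 to 106.

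The lowest windows belonged to some, but not all, measured genes of complex I, NADH dehydrogenase, which passes electrons from NADH into the chain. Whether all windows had their full length on the mitochondrial genome was not examined. A low count is therefore not read as a trait of a gene or of its complex. mt-Nd1 (ENSRNOG00000030644), which encodes a membrane subunit next to the quinone site, was the lowest member in 30 of 30 libraries. In the cortex it had 8877, 830, 993, 458 and 1033 CPM in sham rats 1 to 5 and 607, 709, 1176, 1927 and 19330 CPM in TBI rats 6 to 10. The groups overlapped, and rats 1 and 10 were the highest of the tissue. In the hippocampus its level was 188, 203, 131, 234 and 447 CPM in sham and 84.8, 187, 215, 233 and 107 CPM in TBI, with rat 5 on top. In the thalamus its sham levels were 314, 293, 179, 472 and 144 CPM and its TBI levels 96.5, 557, 211, 184 and 164 CPM, again with overlapping groups.

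mt-Nd2 (ENSRNOG00000031033), a pumping subunit of the same complex, was the second lowest in 30 of 30 libraries, at 1.39 ± 0.0512 times mt-Nd1 (SD, n = 30). Its CPM ran from 645 to 27287 in the cortex (median 1430), from 120 to 680 in the hippocampus (median 278) and from 124 to 799 in the thalamus (median 263). mt-Nd3 (ENSRNOG00000033615) and mt-Nd4 (ENSRNOG00000029707), the other measured subunits of complex I, were not low. mt-Nd3 was at 1.81 ± 0.171 times mt-Nd1 (SD, n = 30), with median levels of 1973, 362 and 334 CPM in cortex, hippocampus and thalamus, and had the highest single value of all members, 39144 CPM in cortex rat 10. mt-Nd4 had medians of 1930, 358 and 337 CPM and reached 37936 CPM in cortex rat 10.

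mt-Cyb (ENSRNOG00000031766) encodes cytochrome b, the catalytic core of complex III, and had the highest mean CPM over the 30 libraries. In the cortex it had 18998, 1540, 2023, 873 and 2161 CPM in sham rats 1 to 5 and 1249, 1417, 2482, 4016 and 37669 CPM in TBI rats 6 to 10. In the hippocampus the values were 350, 328, 213, 390 and 1052 CPM in sham and 148, 280, 389, 357 and 166 CPM in TBI. In the thalamus they were 587, 508, 322, 791 and 249 CPM in sham and 139, 1066, 416, 349 and 327 CPM in TBI. The order of the libraries was close to that of mt-Nd1, and sham and TBI overlapped in each tissue.

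The core subunits of cytochrome c oxidase (complex IV), the enzyme that reduces oxygen, lay above mt-Nd1 and mt-Nd2 in 30 of 30 libraries. mt-Co1 (ENSRNOG00000034234), the catalytic subunit, ran from 816 to 34557 CPM in the cortex (median 1793), from 157 to 868 CPM in the hippocampus (median 342) and from 145 to 995 CPM in the thalamus (median 322). mt-Co2 (ENSRNOG00000030371), which takes electrons from cytochrome c, had medians of 1817, 353 and 302 CPM in the 3 tissues, and mt-Co3 (ENSRNOG00000030700) had medians of 1956, 356 and 332 CPM. These medians did not set the 3 genes apart, and each had its highest value in cortex rat 10.

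The ATP synthase subunits were at the same height. mt-Atp6 (ENSRNOG00000031979), part of the proton channel, ran from 840 to 37324 CPM in the cortex (median 1904), from 160 to 968 CPM in the hippocampus (median 359) and from 135 to 1010.5 CPM in the thalamus (median 323). mt-Atp8 (ENSRNOG00000033299), a small membrane subunit, had medians of 1892, 356 and 319 CPM. The group medians of all 10 members spanned 993 to 2023 CPM in sham cortex and 1176 to 2482 CPM in TBI cortex. The width of these spans came from mt-Nd1 and mt-Nd2. The medians of the other members spanned 1720 to 2023 CPM in sham cortex and 2090 to 2482 CPM in TBI cortex. For them the step between operations was of a size like that between members.

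**Figure D2:**
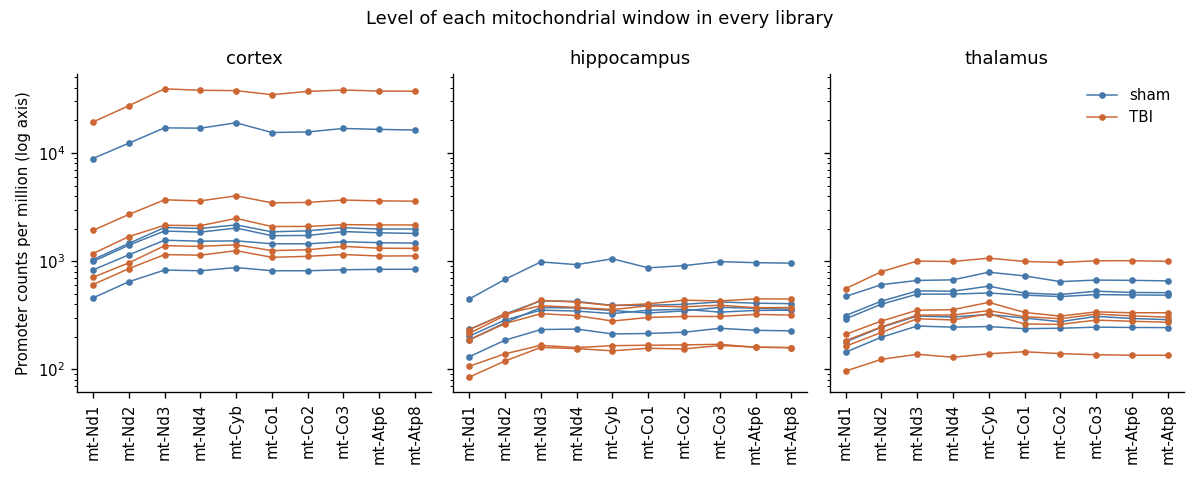
Promoter CPM (log axis) of each mitochondrial window, ordered by respiratory complex, in the 10 libraries of each tissue; every line joins the 10 windows of 1 library (sham blue, TBI orange). The lines run almost parallel, with mt-Nd1 and mt-Nd2 lowest in all 30 libraries, while the height of the lines differs between libraries, most of all in the cortex.

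The 10 windows thus rose and fell together from rat to rat. The Pearson correlation of log2 CPM between pairs of members over the 10 libraries of a tissue was at least 0.999 for cortex, 0.979 for hippocampus and 0.987 for thalamus, with 45 pairs each. These pairs share the library, its depth and, through overlapping windows, part of their reads. mt-Atp6 and mt-Atp8, whose genes overlap on the mitochondrial genome, were nearly equal, with a ratio of 1.01 ± 0.0084 (SD, n = 30).

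As a share of the summed member counts, mt-Nd1 took 5.75% (cortex), 6.02% (hippocampus) and 6.46% (thalamus), and mt-Nd2 took 8.06%, 8.51% and 8.69%. The 8 other members lay between 10.0% and 11.6% in each tissue. Neighbours in the order of these 8 mostly changed places between libraries. Over all libraries, mt-Cyb was above mt-Nd3 in 18 of 30, mt-Nd3 above mt-Co3 in 18 of 30, mt-Co3 above mt-Nd4 in 18 of 30 and mt-Co1 above mt-Co2 in 13 of 30, so that none of these pairs kept 1 order.

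mt-Cyb was the member whose place differed most between tissues. Its ratio to mt-Co1 was 1.14 ± 0.0536 (cortex), 1.11 ± 0.0896 (thalamus) and 0.994 ± 0.0864 (hippocampus; SD, n = 10 each). It was below mt-Co1 in 8 of 10 hippocampus libraries, and the highest ratio there, 1.21, was that of a library singled out above, rat 5. No test was made of this ratio, because it was chosen after the values were seen.

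**Figure D3:**
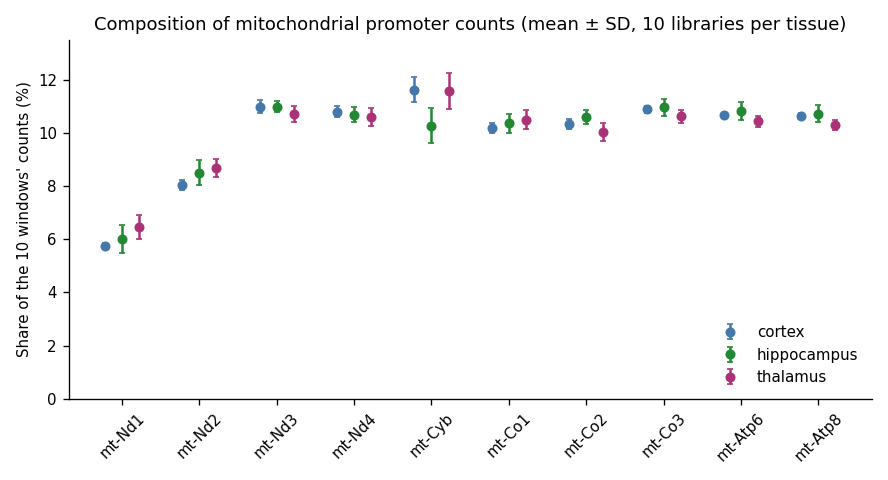
Share of the summed counts of the 10 mitochondrial windows (percent) taken by each window, as mean ± SD over the 10 libraries of a tissue. mt-Nd1 lies near 6% and mt-Nd2 between 8.06% and 8.69%, the others lie between 10.0% and 11.6%, and mt-Cyb is lower in the hippocampus (10.3%) than in the cortex and thalamus (11.6% in both).

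Whether TBI changed the mitochondrial windows was tested within each tissue by the quasi-likelihood test of edgeR across all promoter windows, with Benjamini-Hochberg adjustment. None of the 10 members was called in any tissue. In the cortex 0 of 10 were called, against 0% of 22110 windows tested, and all 10 fold changes lay above 0. The median log2 fold change (TBI over sham) of the members was 1.35, with a range of 1.21 to 1.41, against −0.01 for all windows. mt-Cyb had a log2 fold change of 1.21 (SE 1.31, adjusted p = 1.00 in edgeR's test) and mt-Nd1 one of 1.31 (SE 1.21, adjusted p = 1.00 in edgeR's test). Without rat 10 the median was −1.27 and without rat 1 it was 3.04. Without both it was 0.43, and mt-Cyb then had 0.49 (SE 0.53) and mt-Nd1 0.43 (SE 0.44). Without rats 4 and 6, whose libraries were closer to the hippocampus, it was 1.40, and 0 of 10 members were called in either case.

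In the hippocampus 0 of 10 members were called, against 0% of 20017 windows. All 10 fold changes lay below 0, between −0.70 and −0.47 with a median of −0.58, and all windows had a median of 0.00. mt-Cyb had −0.70 (SE 0.34, adjusted p = 1.00 in edgeR's test) and mt-Nd1 −0.47 (SE 0.28, adjusted p = 1.00 in edgeR's test). The median was −0.30 without rat 5, the library with the highest share, and 0 of 10 members were then called.

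In the thalamus 0 of 10 members were called, against 0% of 21894 windows, and the median log2 fold change was −0.09 with a range of −0.19 to −0.08. mt-Nd1 had −0.19 (SE 0.37) and mt-Cyb −0.09 (SE 0.40), with an adjusted p of 1.00 for both in edgeR's test. The median was −0.70 without rat 7 and 0.07 without rat 6, so its direction rested on single libraries. At an unadjusted p under 0.05 edgeR's test had 171, 570 and 198 windows in the cortex, hippocampus and thalamus, none of them a member. DESeq2 called 0 windows in each tissue, with 185, 394 and 176 at an unadjusted p under 0.05, and gave the cortex members no p. Among those in the hippocampus were 4 of 10 members, with mt-Cyb lowest (p = 0.0291 and adjusted p = 1.00 in DESeq2). edgeR's exact test, run on library totals with a common dispersion, called 7 cortex windows (0.0317%), 157 hippocampus windows (0.784%) and 0 thalamus windows, of which 0 were members. Before adjustment its p was under 0.05 for 10 of 10 members in the cortex (0.000679 to 0.00518 in this exact test) and 10 of 10 in the hippocampus (0.00288 to 0.0453), with lowest adjusted p of 1.00 and 0.202. How many of all windows reached that level in this test is not given here, and the members are not independent. A common dispersion also leaves out the spread of the members, as mt-Cyb log2 CPM in the cortex had an SD of 1.69 in sham and 2.00 in TBI. These counts are therefore not read as a result about the members.

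For single members, an exact two-sided permutation test over all 252 assignments of the 10 libraries of a tissue was applied to the difference in mean log2 CPM. The raw p ranged over the 10 members from 0.579 to 0.603 (cortex), 0.183 to 0.222 (hippocampus) and 0.516 to 0.635 (thalamus) in this exact test, whose smallest possible p is 0.00794. The CPM ranges of sham and TBI overlapped for 10 of 10 members in every tissue.

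**Figure D4:**
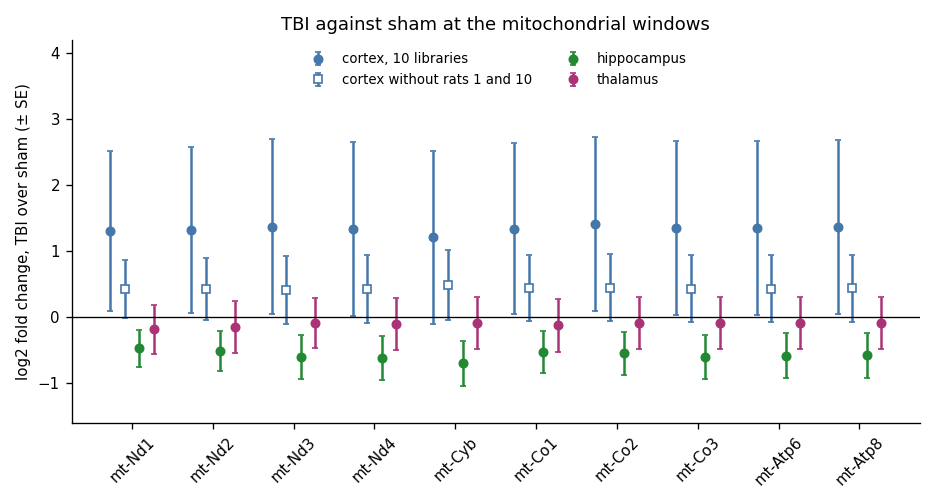
log2 fold change of TBI over sham (± SE, edgeR) at each mitochondrial window for the cortex, the cortex without rats 1 and 10 (open squares), the hippocampus and the thalamus; n = 5 libraries a group, 4 for the squares. The cortex medians are 1.35 with and 0.43 without the 2 libraries, the hippocampus median is −0.58 and the thalamus median −0.09, and 0 of 10 windows were called in each.

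Whether the effect of TBI differed between tissues was tested as an interaction in a fit of all 30 libraries over 18577 windows with edgeR. The interaction was called for 0 of 10 members in each of the 3 tissue pairs, against 0% of windows. At an unadjusted p under 0.05 there were 479, 135 and 293 windows for hippocampus against cortex, thalamus against cortex and thalamus against hippocampus, and DESeq2 called 1, 0 and 0. The median difference of the log2 fold changes was −1.93 for hippocampus against cortex, −1.47 for thalamus against cortex and 0.47 for thalamus against hippocampus. Standard errors of single members ran from 1.12 to 1.19. Without the cortex libraries of rats 1 and 10 the first 2 values were −1.02 and −0.53, and without all 3 libraries of rat 10 they were 0.84 and 1.28. Without the 3 libraries closer to another tissue the 3 values were −1.69, −1.48 and 0.22, with 0 of 10 members called.

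The difference between tissues was called for every member in the comparisons with the cortex. The genes were listed with the high cortex counts known, so these calls and their p-values are a description. Leaving libraries out, as below, does not remove this limit. In the same fit 10 of 10 members were lower in the hippocampus than in the cortex. Of all windows 61.0% were called in this comparison and 31.4% were lower, so a lower call was common in this comparison. The members' median log2 fold change was −4.06, with a range of −4.23 to −4.00, while 5% of all windows were below −1.24. mt-Cyb had −4.23 (SE 0.67, adjusted p = 7.34e-05 in edgeR's test) and mt-Nd1 −4.02 (SE 0.63, adjusted p = 7.13e-05 in edgeR's test).

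Between thalamus and cortex 10 of 10 members were also lower in the thalamus, where 19.1% of windows were called and 10.0% were lower. The median was −4.12, with a range of −4.14 to −3.91, while 5% of all windows were below −0.91. mt-Cyb had −4.07 (SE 0.67, adjusted p = 5.28e-05 in edgeR's test) and mt-Nd1 −3.91 (SE 0.63, adjusted p = 4.50e-05 in edgeR's test).

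These sizes were smaller without cortex rats 1 and 10. Without these 2 libraries, 10 of 10 members were still called in both comparisons, with medians of −1.95 for hippocampus and −1.97 for thalamus against cortex (25.7% and 6.45% of all windows called lower). mt-Cyb then had −2.14 (SE 0.31) and −1.95 (SE 0.31), and mt-Nd1 −1.93 (SE 0.28) and −1.79 (SE 0.28). With the rat as a block, which compares tissues of the same animal, the medians were −2.88 and −3.02 and 10 of 10 members were called in both (31.6% and 10.4% of all windows lower). Without cortex rats 4 and 6 and hippocampus rat 5 they were −4.53 and −4.41, again with 10 of 10 called (40.5% and 16.9% lower). DESeq2 gave a p for 3 of the 10 members here and called all 3 lower in both comparisons (31.8% and 12.3% of all windows).

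The comparison within animals gave the same order. The cortex share was above the hippocampus share of the same rat in 10 of 10 rats, with a median ratio of 6.19 (2.03 to 221), and above the thalamus share in 10 of 10 rats, with a median ratio of 7.12 (1.18 to 130). Without rats 1 and 10 the medians were 4.72 and 6.13. The lowest ratio to the hippocampus was that of rat 4, whose cortex library was closer to the hippocampus outside the members, and rat 5, whose hippocampus library was closer to the cortex, had 2.10. Single members were higher in the cortex than in the hippocampus in 10 of 10 rats, and higher than in the thalamus in 9 to 10. How many of all windows showed such an order was not counted, and the members are not independent.

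Across animals the tissues overlapped at their edges. The lowest cortex share was 0.776% (rat 4) against a highest hippocampus share of 0.878% (rat 5) and a highest thalamus share of 0.940% (rat 7). Without the 3 libraries that were closer to another tissue, the cortex ranged from 1.24% upwards, the hippocampus up to 0.394% and the thalamus up to 0.940%, with no overlap of the cortex with either. This removal was chosen after seeing the data. It took out the lowest cortex shares and the highest hippocampus share, so the separation is partly built in.

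No difference was detected between thalamus and hippocampus. In edgeR's test 0 of 10 members were called, although 56.6% of all windows were, and the median log2 fold change was −0.03 with standard errors of 0.56 to 0.59. It was 0.14 without the libraries closer to another tissue, again with 0 of 10 called. The thalamus share was above that of the hippocampus in 6 of 10 rats, with a median ratio of 1.37 (0.262 to 3.21). Each tissue was held in its own table, and by reference to its RNA-sequencing the study describes another instrument for the thalamus, whereas the labels name the Genome Analyzer IIx throughout. Tissue and any difference in handling or sequencing run between tissues cannot be told apart.

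The gene body tables gave a further readout of the same identifiers that the list did not use. It is not an independent one, because long promoter windows on so small a molecule can cover gene bodies, and both could count the same read. Their depth was low, with totals of 27209 to 161737 per library. A single member had 6 to 1336 counts in the cortex (median 24), 0 to 22 in the hippocampus (median 4) and 2 to 40 in the thalamus (median 11). In each library the members held 94.5 to 226 times more counts in promoter windows than in gene bodies. Each of the 10 gene body rows was identical over all 30 libraries to exactly 1 row of the exon tables, so exons gave no further measurement.

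The gene body share followed the promoter share. It was 8.54% in cortex rat 1 and 15.3% in cortex rat 10, against 0.216% to 1.76% in the other cortex libraries, and the highest of its tissue in hippocampus rat 5 (0.420%) and thalamus rat 7 (0.402%). The Spearman rho between the shares over the 10 libraries of a tissue was 1.00 (cortex), 0.685 (hippocampus) and 0.988 (thalamus). It is given as a description, because both shares come from the same libraries and may count some of the same reads.

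**Figure D5:**
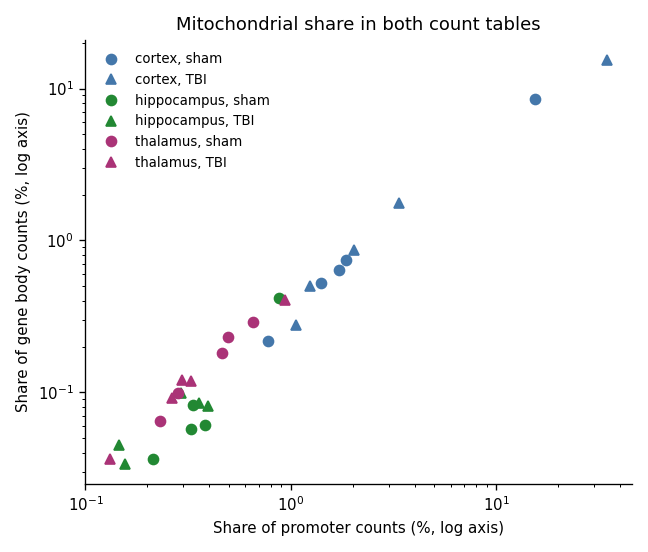
Share of gene body counts (percent, log axis) against share of promoter counts (percent, log axis) that fell in the 10 mitochondrial genes; each point is 1 of the 30 libraries, coloured by tissue, with circles for sham and triangles for TBI. Cortex rat 10 (34.6% of promoter and 15.3% of gene body counts) and cortex rat 1 (15.5% and 8.54%) lie at the top of both.

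In the gene bodies no member was called for TBI against sham. In the cortex 0 of 10 were called, against 0% of 269 rows, with a median log2 fold change of 1.69 that became −1.77 without rat 10 and 4.25 without rat 1. It was 0.67 without both and 1.61 without rats 4 and 6, with 0 of 10 members called in either case. In the hippocampus 0 of 10 members passed the filter on low counts, so none was tested, and 0% of 585 rows were called. In the thalamus 7 of 10 passed and 0 were called, against 0% of 788 rows, with a median of −0.23 (−1.04 without rat 7, 0.06 without rat 1). Rows with an unadjusted p under 0.05 in edgeR's test numbered 1, 19 and 19, and DESeq2 called 0 in each tissue. The filter needed enough counts in as many libraries as a group holds, so a member could pass mainly through the group where it was high. The median over those tested is therefore a description.

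Promoter windows outside the list that followed the members were ranked by the Pearson r of their log2 CPM, less the tissue mean, with that of the summed members over 30 libraries, among 16612 windows. The members themselves had 0.997 to 0.9997. The identifiers outside the list with the highest r were ENSRNOG00000031053 (r = 0.9995), ENSRNOG00000029971 (r = 0.9988) and ENSRNOG00000029042 (r = 0.992), with mean cortex levels of 6836, 6913 and 3465 CPM. ENSRNOG00000033028 (r = 0.935) and ENSRNOG00000030243 (r = 0.782) followed at 158 and 31.9 CPM, and the median of the windows outside the list was −0.02. The first 3 had levels and ranges like those of the members, and the libraries and their depth are shared by all windows. The identifiers were not paired with symbols, so these genes are not named here.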

How the data were processed

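MBD-seq libraries from 10 rats in 3 tissues were used. The authors fragmented DNA, captured it with a MethylMiner kit, mapped reads to Rnor_5.0 with STAR without splicing and counted them by region in R 3.1.0 with Repitools. The deposited values were whole-number counts without normalization in 9 tables of 90 sample columns, of which 0 were left unused. Symbols came from the given list of identifiers, since the tables hold none and the reference gene table matched 0 members. For the same reason the intended lists of nuclear respiratory chain and mitochondrial DNA maintenance genes were not analysed here. The members, lists and tests were chosen with earlier results of these data known.

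Python 3.11.15 with pandas 2.3.3 was used to join the tables, and permutation tests and Wilson intervals were computed with scipy 1.17.1. Windows were tested over whole tables with the quasi-likelihood F test of edgeR 4.0.16 (R 4.3.3) after filterByExpr (minimum count 10, minimum total count 15) and TMM scaling, with a Benjamini-Hochberg threshold of 0.05. Replicates were separate rats. Tissues were compared in 1 fit of 30 libraries in 6 groups, over identifiers with 1 row in each table (18658). The test was checked on counts simulated from hippocampus means, with the same dispersion for every window. Extreme libraries like cortex rats 1 and 10 were not simulated, so the check does not cover them. Log2 CPM for permutation tests used a prior count of 0.5. Full statistics were given for the members with the highest and the lowest mean CPM, others by range and count, and the 5 windows outside the list most like the members were named.

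Rat numbers are the same in the 3 tissues and mark the same animal in the labels. Over windows, libraries of the same rat deviated from their group means with a median correlation of 0.04 (hippocampus and cortex), 0.11 (thalamus and cortex) and −0.06 (thalamus and hippocampus), so the rat as a block is an alternative. In 60 within-group pairs no 2 libraries agreed within sampling noise (lowest chi-square per degree of freedom 2.04). Alternatives were library totals, other filters, TMM without the members, DESeq2 1.42.0, a common-dispersion exact test, other denominators of the share, a prior count of 2 and leaving out each rat. Leaving out cortex rats 1 and 10, and the libraries closer to another tissue, was chosen after seeing the data.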

Additional observations from a re-analysis of the deposited data

Results flagged for a closer look

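In each group of 5 libraries, the gap between the most extreme library and its neighbour was compared with the range of the group (Dixon's ratio, critical value 0.71). It was exceeded in 14 of 24 groups over 4 measures. Chance exceeds it in about 1 in 20 groups, but that rate is no test here, because the measures repeat the same libraries and the genes were listed with the high cortex counts known. The share of promoter counts exceeded it in 4 of 6 groups, namely 15.5% in sham cortex (rat 1), 34.6% in TBI cortex (rat 10), 0.878% in sham hippocampus (rat 5) and 0.940% in TBI thalamus (rat 7). The share of gene body counts did so in the same libraries, at 8.54%, 15.3%, 0.420% and 0.402%. mt-Cyb stood apart at 18998 CPM in cortex rat 1, 37669 CPM in cortex rat 10 and 1052 CPM in hippocampus rat 5. mt-Nd1 did so at 8877 CPM in cortex rat 1, 19330 CPM in cortex rat 10 and 557 CPM in thalamus rat 7. The source of these high values was not tested.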

How the results depend on the processing

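The calls of the members kept their side of the threshold under the alternatives that tested them, which were 15 to 18 a comparison and 1 for hippocampus gene bodies. DESeq2 gave p-values for 3 of 10 members in the fit of all libraries, and called 3 in hippocampus against cortex and 3 in thalamus against cortex. It gave none for the cortex members alone. With the rat as a replicate block, 10 members were called in both comparisons with the cortex and 0 between thalamus and hippocampus and in the interactions, so the block changed no call. Leaving out each rat gave 10 members called in each comparison with the cortex (medians of −4.36 to −2.69 and −4.56 to −2.76) and 0 in the others.

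With 0 members called, directions for TBI against sham were unstable. Leaving out each rat moved mt-Cyb from −1.29 to 2.97 in the cortex and from −0.65 to 0.10 in the thalamus, and mt-Nd1 from −1.27 to 2.98 and from −0.72 to 0.037. In the hippocampus mt-Cyb stayed between −0.87 and −0.35 and mt-Nd1 between −0.61 and −0.27. The interaction medians with the cortex turned positive without rat 10 (0.84 and 1.28).

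Library totals shifted the median of all windows by −0.26 in hippocampus against cortex and by 0.30 in thalamus against hippocampus. The windows called higher were then 23.1% of those called (48.4% with TMM) and 77.3% (51.7%). Members were still called, with negative medians, in both comparisons with the cortex. Their median was 0.26 in thalamus against hippocampus. In thalamus against cortex 1793 windows were called with library totals, 2337 with at least 10 counts in every library, 2298 without cortex rats 1 and 10, and 6282 without the libraries closer to another tissue, against 3555.

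As a ratio to the promoter counts outside the top 5% of rows and the members, the median share became 0.643% in sham and 0.459% in TBI hippocampus and 0.671% in sham thalamus. On the same scale cortex rat 10 moved from 34.6% to 77.0% and cortex rat 1 from 15.5% to 25.7%, and the cortex medians were 2.31% (sham) and 2.66% (TBI). Leaving out a rat moved the medians between 1.55% and 1.78% (sham cortex), 1.63% and 2.70% (TBI cortex), 0.330% and 0.358% (sham hippocampus), 0.225% and 0.325% (TBI hippocampus), 0.372% and 0.477% (sham thalamus) and 0.280% and 0.311% (TBI thalamus). In hippocampus gene bodies, where 10 of 100 member values were 0, the members were tested only when every row with a count was kept (median −0.69, adjusted p of 0.486 to 0.762 in edgeR's test, 0 called).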
